A study of Mus musculus with 2 samples.

Results

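9 genes of retinoic acid metabolism and signalling were followed: Rbp4, Stra6, Crabp1, Crabp2, Aldh1a2, Cyp26b1, Rara, Rarb and Rarg. They were taken by symbol from the feature lists, which held all 9 among 32285 gene identifiers. The set was picked with results of these libraries in view, for lower Aldh1a2 in cells of the knockout library and for Cyp26b1 in pre-osteoblast-like cells, so those values are given below as a description. The cells were cultured bone marrow stromal cells of C57BL/6J mice. The cKO library came from mice carrying Prrx1-Cre+/- and 2 floxed Slc31a1 alleles (Slc31a1 flox/flox). The WT library came from littermates with the same floxed alleles and no Cre, so the WT animals also carried them. Slc31a1 encodes a copper importer, and Prrx1-Cre is active in limb bud mesenchyme and its descendants. Marrow of the long hind limb bones was plated with 10% fetal bovine serum, unattached cells were washed away at 48 h, and neither group received osteogenic medium. The labels give neither the age nor the number of the mice. Each genotype had 1 library, and both carry the same batch label in GEO. Genotype therefore cannot be told apart from the mouse, the culture or the capture.

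Retinol travels in blood bound to retinol binding protein 4 (RBP4) and can enter cells through the membrane receptor STRA6. Inside the cell it is oxidised to retinal, and retinaldehyde dehydrogenases such as ALDH1A2 turn retinal into retinoic acid. The cytosolic proteins CRABP1 and CRABP2 bind retinoic acid, and CRABP2 can deliver it to the nucleus. There the retinoic acid receptors RARA, RARB and RARG pair with retinoid X receptors on DNA and switch target genes, while CYP26 enzymes such as CYP26B1 break retinoic acid down. In mice, CYP26B1 is known for keeping retinoic acid low in the limb bud, and retinoic acid signalling is known to affect cartilage and bone cells.

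Cells were captured with Chromium 3′ v3 chemistry, in which each captured mRNA carries a molecular barcode (UMI) and is read near its 3′ end. The cKO library held 126031142 UMIs in 6140 barcodes and the WT library 152398639 UMIs in 9125 barcodes. After filtering, 5263 cKO cells (median 9710 UMIs) and 7637 WT cells (median 9706 UMIs) were kept, and the libraries shared 11 barcode sequences. The labels call the cells mesenchymal stem cells, but mesenchymal-like clusters held 26.9% of the kept cKO cells (1415) and 48.8% of the kept WT cells (3725), and macrophage-like clusters held 2566 and 2868 cells. Mesenchymal-like cells were deeper in the cKO library, with a median of 61899 UMIs, than in the WT library, with 13941. Most cKO cells of the class lay in cluster 0 (825 cells) and most WT cells in the shallower cluster 3 (1963 cells). Slc31a1, the targeted gene, had 14.3 UMIs per 1000000 UMIs of that group (CPM) in cKO and 42.4 CPM in WT mesenchymal-like cells, a cKO over WT ratio of 0.338 (95% interval 0.317 to 0.361). In macrophage-like cells, which the Cre is not aimed at, it had 72.0 CPM in cKO and 69.7 CPM in WT. All intervals cover counting error only, because with 1 library per group no test between genotypes exists.

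The DNA around a transcript start can hold elements through which retinoic acid receptors act. Windows from 250 bases before to 50 bases after an annotated start were available from RefSeq (GRCm38.p6) for 8 of the 9 genes, 16 windows in all. They were searched on both strands for 2 hexamers in the same orientation (each AGGTCA or GGGTCA or AGTTCA or GGTTCA) with 5 bases between them, a form of the retinoic acid response element known as DR5. This pattern was found in 32 of 32851 windows (0.0974%) and in 1 of the 16 windows, that of Rarb. 3 windows are printed 5′ to 3′ on the gene's strand: Rarb because it holds the element (in capitals), and Aldh1a2 and Cyp26b1 because the results below turn on them.
Rarb, chr14:16575427-16575726, minus strand: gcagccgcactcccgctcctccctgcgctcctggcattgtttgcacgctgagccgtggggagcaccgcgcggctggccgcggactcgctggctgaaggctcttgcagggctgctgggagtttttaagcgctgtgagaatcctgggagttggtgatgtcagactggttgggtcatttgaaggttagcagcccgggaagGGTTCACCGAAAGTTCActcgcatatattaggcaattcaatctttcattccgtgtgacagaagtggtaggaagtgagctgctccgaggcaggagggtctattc
Aldh1a2, chr9:71215539-71215838, plus strand: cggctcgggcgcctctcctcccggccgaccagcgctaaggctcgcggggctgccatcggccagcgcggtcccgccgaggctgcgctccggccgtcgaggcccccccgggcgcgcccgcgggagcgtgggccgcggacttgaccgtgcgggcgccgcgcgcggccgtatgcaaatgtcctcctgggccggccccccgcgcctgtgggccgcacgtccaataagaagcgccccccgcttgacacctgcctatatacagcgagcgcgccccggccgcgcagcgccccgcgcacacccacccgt
Cyp26b1, chr6:84593761-84594060, minus strand: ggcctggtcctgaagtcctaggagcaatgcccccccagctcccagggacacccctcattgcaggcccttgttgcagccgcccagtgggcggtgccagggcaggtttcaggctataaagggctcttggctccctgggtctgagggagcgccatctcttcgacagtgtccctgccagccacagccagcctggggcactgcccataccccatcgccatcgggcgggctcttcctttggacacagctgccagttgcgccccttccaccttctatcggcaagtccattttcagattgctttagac
The Rarb element covers positions -53 to -37 from the start, at chr14:16575513-16575529. Among the other retinoid pathway genes with a window, Cyp26a1, which encodes a further retinoic acid hydroxylase, held the pattern on the strand opposite to the gene, at positions -32 to -16. With 1 or 2 bases between the hexamers, which gave 73 and 88 of all windows (0.222% and 0.268%), none of the 16 windows matched. Among the further retinoid genes with a window, Bco1 held the form with 1 base between, on the strand opposite to the gene, at positions -56 to -44. No such gene held the form with 2. A missing match says no more than that these letters are absent from this window. The Aldh1a2 window was 78% G or C with 50 CpG sites, against 62.3% with 9 CpG sites for Cyp26b1 and 57.7% with 17 for Rarb.

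In mesenchymal-like cells 6 of the 9 genes reached 10 CPM in either library: Rbp4, Crabp2, Aldh1a2, Cyp26b1, Rara and Rarg. Aldh1a2 and Cyp26b1 were at least 1.5-fold lower in cKO, and 0 of the 6 were at least 1.5-fold higher. Across all 8944 genes that reached 10 CPM, 1.15% were at least 1.5-fold lower and 0.581% at least 1.5-fold higher in cKO. Both genes chose the set, so nothing is read from the count. Rarb was detected below 10 CPM, and Stra6 and Crabp1 were near the limit of detection. The same 2-of-6 count was found with only the cells of at least 20000 UMIs, 1135 cKO and 1682 WT.

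**Figure D1:**
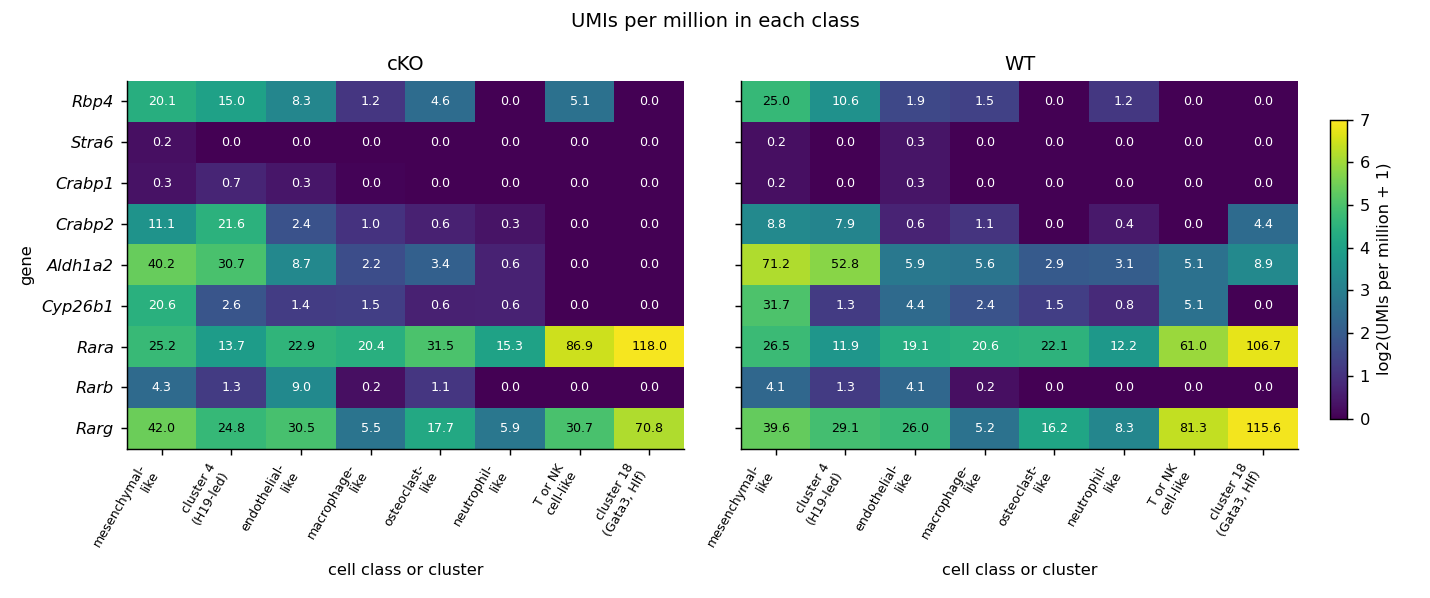
CPM of the 9 genes (rows) in 8 classes or clusters (columns), with the cKO library in the left panel and the WT library in the right. Colour is log2(CPM + 1). Aldh1a2 and Cyp26b1 are highest in mesenchymal-like cells among these columns, and Rara is highest in cluster 18 (118 CPM in cKO, 107 CPM in WT).

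Of the genes of retinol uptake, Rbp4 was transcribed by the stroma itself and Stra6 hardly at all. Rbp4 (chr19:38116629-38125281, minus strand, GRCm38) had 20.1 CPM in cKO and 25 CPM in WT mesenchymal-like cells, from 1671 and 2596 UMIs. The cKO over WT ratio was 0.802 (0.754 to 0.853). The gap was uneven across the stromal states, which are sub-clusters of the mesenchymal-like cells. In the pre-osteoblast-like state, Rbp4 had 12.7 CPM in cKO and 25.2 CPM in WT, a ratio of 0.502 (0.432 to 0.583). In the cycling-like state it had 26.3 CPM in cKO and 28.3 CPM in WT, a ratio of 0.930 whose interval (0.841 to 1.03) includes 1. Stra6 gave 19 UMIs in cKO and 22 UMIs in WT mesenchymal-like cells, or 0.228 CPM and 0.212 CPM. The Stra6 locus (chr9:58063788-58153996, plus strand) overlaps Ccdc33 on the opposite strand.

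The retinoic acid binding proteins were split in the same way. Crabp1 gave 22 UMIs in cKO and 24 UMIs in WT mesenchymal-like cells, so its difference was not detectable at this depth (ratio 1.14, 0.611 to 2.13). Crabp2 (chr3:87948666-87953376, plus strand) had 11.1 CPM in cKO and 8.83 CPM in WT, a ratio of 1.26 (1.15 to 1.38). That direction depends on how cells are weighted: with each cell counted equally the ratio was 0.977. Crabp2 was concentrated in the pre-osteoblast-like state, with 24.2 CPM there in cKO and 20.9 CPM in WT. This was 3.98 times the level of the other mesenchymal-like cells in cKO and 3.32 times in WT. In the cycling-like state, Crabp2 was low in both libraries, with 4.91 CPM in cKO and 3.01 CPM in WT.

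**Figure D2:**
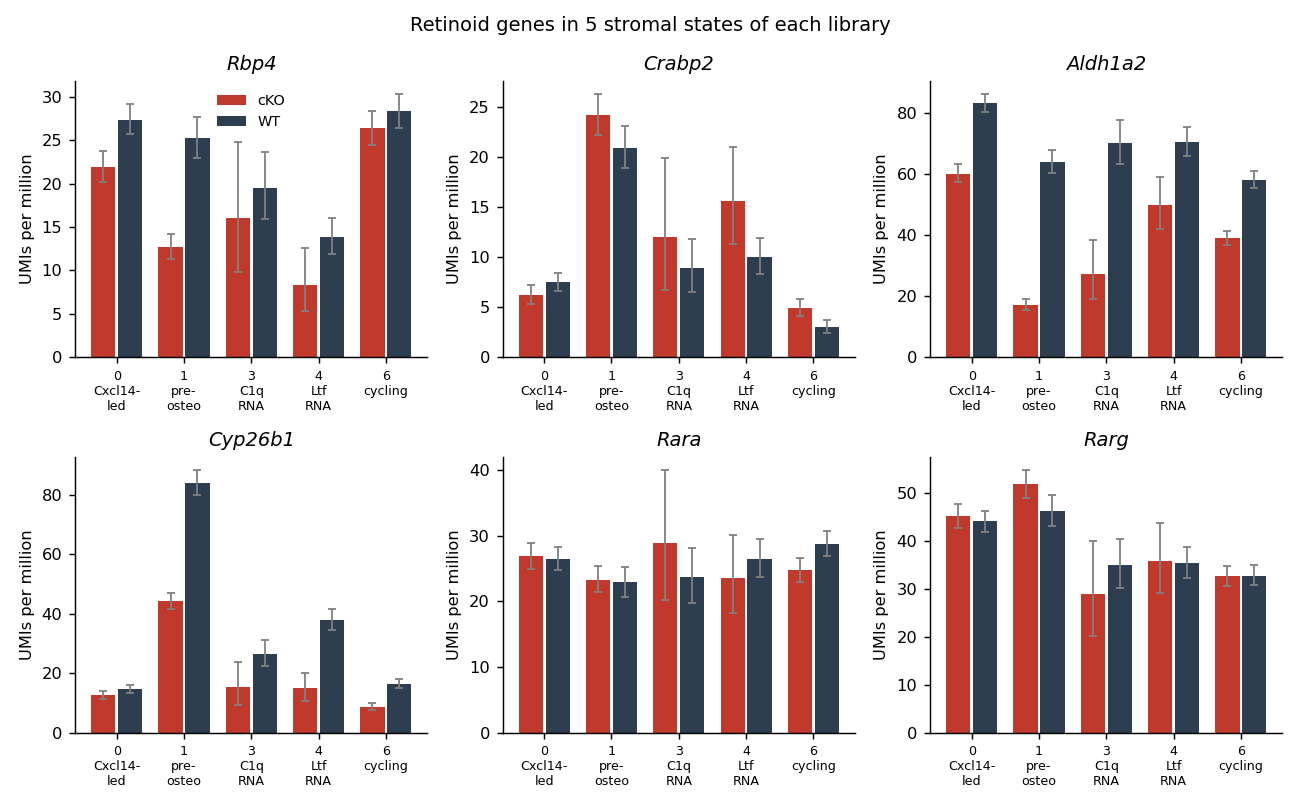
CPM of 6 genes in the 5 stromal states with at least 50 cells in each library, cKO (red, left) beside WT (dark, right), with exact Poisson 95% intervals. Cyp26b1 and Crabp2 are highest in the pre-osteoblast-like state of both libraries among these 5 states, and Aldh1a2 is lower in cKO than in WT in each of the 5.

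Aldh1a2, the enzyme that makes retinoic acid in many embryonic and adult tissues, was lower in cKO mesenchymal-like cells. It had 40.2 CPM in cKO (38.8 to 41.5; 3341 UMIs) and 71.2 CPM in WT (69.6 to 72.8; 7380 UMIs). The ratio was 0.564 (0.541 to 0.588). The gene lies at chr9:71215789-71296243 on the plus strand and overlaps the predicted gene Gm48124 on the opposite strand. All 5 states with at least 50 cells in each library had less Aldh1a2 in cKO, and no pair of their intervals overlapped. The Cxcl14-led state 0 had 60.1 CPM in cKO and 83.1 CPM in WT, and the cycling-like state had 39.0 CPM in cKO and 58.0 CPM in WT. The widest gap lay in the pre-osteoblast-like state, with 17.2 CPM in cKO and 63.9 CPM in WT, a ratio of 0.268 (0.239 to 0.301). Within the cKO library, the pre-osteoblast-like state held 0.350 times the Aldh1a2 level of the other mesenchymal-like cells (0.314 to 0.388). Within the WT library it held 0.879 times that level (0.825 to 0.937). In the shallow states 3 and 4, which carry macrophage and neutrophil transcripts, Aldh1a2 had 27.3 and 49.7 CPM in cKO against 70.2 and 70.5 CPM in WT.

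The share of cells with an Aldh1a2 UMI is drawn from the same UMIs on which the gene was chosen, so it is a further description only. After each cell was thinned to 20000 UMIs, 31.4% of 1135 cKO cells (28.7 to 34.2) and 49.9% of 1682 WT cells (47.5 to 52.4) had an Aldh1a2 UMI. Thinning left out 280 cKO and 2043 WT cells that were shallower, and without it the shares were 42.1% in cKO and 47.8% in WT. Among macrophage-like cells, 3.66% of 191 cKO cells and 7.33% of 300 WT cells had an Aldh1a2 UMI at the same 20000 UMIs. Whether these cells transcribe the gene themselves was not tested. Unthinned macrophage-like cells had median depths of 7668 UMIs in cKO and 9184 UMIs in WT. Expression was uneven from cell to cell. Cells with at least 3 Aldh1a2 UMIs made up 9.60% of cKO and 18.5% of WT cells and held 66.8% of the Aldh1a2 UMIs in cKO and 71.6% in WT. By contrast, cells with at least 3 Rara UMIs made up 1.76% of cKO and 2.02% of WT cells and held 11% of the Rara UMIs in cKO and 12.6% in WT. For Rarg such cells made up 6.43% of cKO and 7.19% of WT cells and held 26.6% and 27.9% of its UMIs. The thinned cKO cells held 982 Aldh1a2, 571 Rara and 958 Rarg UMIs. The thinned WT cells held 2553, 868 and 1447 in the same order.

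Transcripts of other cell types moved with this comparison. In mesenchymal-like cells, the summed level of 14 macrophage markers was 231 CPM in cKO and 467 CPM in WT, and all 14 were lower in cKO. The summed level of 12 neutrophil markers was 202 CPM in cKO and 577 CPM in WT, and all 12 were lower in cKO. None of these markers was at 0 in either library. The 12 endothelial markers, all lower in cKO, summed to 42.9 CPM in cKO and 66.0 CPM in WT. Other lists went the other way: the mast or basophil markers summed to 37.1 CPM in cKO and 22.5 CPM in WT, and the osteoclast markers to 134 CPM in cKO and 125 CPM in WT. Among cells with at least 20000 UMIs, the macrophage sums were 215 CPM in cKO and 321 CPM in WT, and the Aldh1a2 ratio was 0.575. In macrophage-like cells themselves, Aldh1a2 had 2.18 CPM in cKO and 5.57 CPM in WT, and the mesenchymal gene Prrx1 had 19.8 CPM in cKO and 21.2 CPM in WT. In mesenchymal-like cells Prrx1 had 450 CPM in cKO and 457 CPM in WT. The part of RNA from other cells in the ratios was not tested further.

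**Figure D3:**
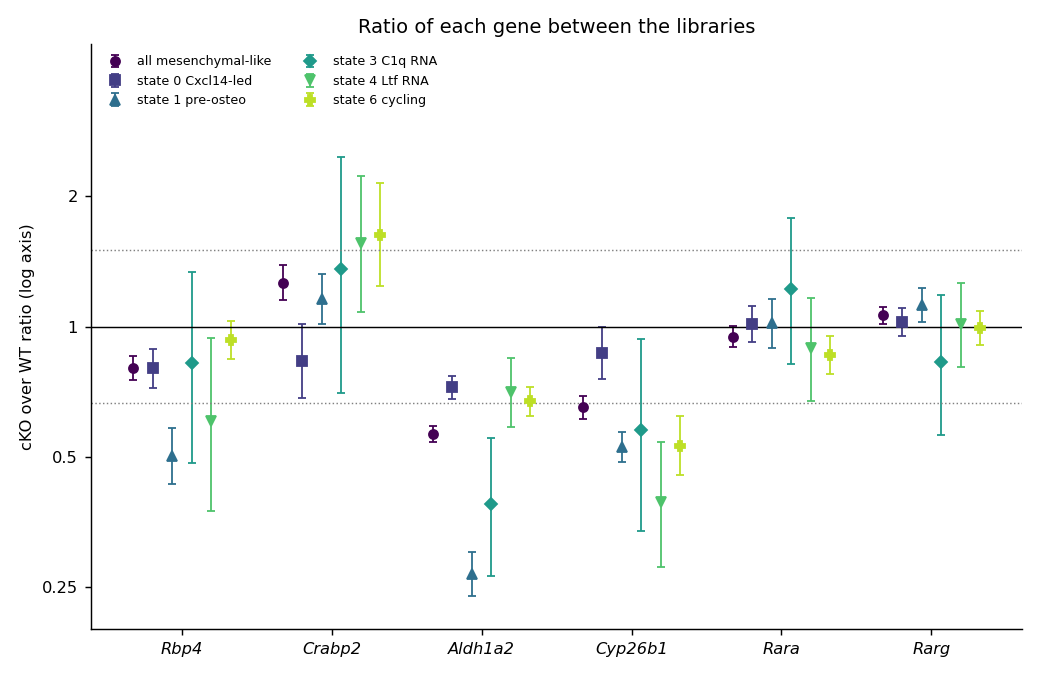
Ratio of cKO over WT for 6 genes (log axis) in all mesenchymal-like cells and in 5 stromal states, with exact conditional binomial 95% intervals that cover counting error only. Dotted lines mark 1.5-fold in each direction. All 5 Aldh1a2 states lie below 1, with the pre-osteoblast-like state at 0.268, and the Rarg values of the 5 states lie between 0.826 and 1.12.

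By state, the count of genes past 1.5-fold varied. In the Cxcl14-led state 0, 0 of 5 genes tested were, where 0.448% of 8702 genes were lower and 0.839% higher in cKO. In the cycling-like state, Cyp26b1 alone of 5 genes was lower, where 0.513% of 8971 genes were, and 0 were higher, where 0.847% were. In state 3, Aldh1a2 and Cyp26b1 of 6 genes were lower and 0 were higher, but there 13.5% of 9259 genes were lower and 4.94% higher, with 70 cKO cells. In state 4, Cyp26b1 and Rbp4 of 6 genes were lower and Crabp2 was higher, where 2.24% of 9581 genes were lower and 3.66% higher. Aldh1a2 and Cyp26b1 chose the set, so nothing is read from these counts.

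Cyp26b1, the retinoic acid hydroxylase, had its highest CPM in the pre-osteoblast-like state of both libraries. This ranking covers the 5 states with at least 50 cells in each library. The gene lies at chr6:84571414-84593908 on the minus strand. In the pre-osteoblast-like state it had 44.2 CPM in cKO (41.5 to 47.0; 1025 UMIs) and 83.9 CPM in WT (79.7 to 88.3; 1503 UMIs). In the other mesenchymal-like cells it had 11.5 CPM in cKO and 20.8 CPM in WT. The pre-osteoblast-like level was thus 3.85 times the rest in cKO (3.49 to 4.24) and 4.04 times in WT (3.77 to 4.33). Cyp26b1 was among the genes that formed the clusters, so these values describe the state, and with the retinoid genes left out of the clustering they were 7.16 times in cKO and 5.19 times in WT. This state held 22.3% of the cKO mesenchymal-like cells, 27.9% of all their UMIs and 59.8% of their Cyp26b1 UMIs. It held 8.64% of the WT mesenchymal-like cells, 17.3% of all their UMIs and 45.7% of their Cyp26b1 UMIs. The share of all UMIs is the base for the share of Cyp26b1 UMIs, because cells of the state were deep. In the remaining states with enough cells, the Cyp26b1 level was between 8.75 and 15.3 CPM in cKO and between 14.6 and 38.0 CPM in WT. After thinning to 20000 UMIs, 26.5% of 291 cKO and 48.4% of 318 WT pre-osteoblast-like cells had a Cyp26b1 UMI. In state 4 the shares were 12.2% of 41 cKO and 47.3% of 146 WT cells. By share of cells, the WT pre-osteoblast-like state was thus not set apart from state 4. A small mural or myofibroblast-like state had 54.5 CPM in 19 cKO cells and 201 CPM in 9 WT cells, but 31 of its 71 WT UMIs came from 1 cell.

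The pre-osteoblast-like state, 316 cKO and 322 WT cells, was named for its markers. Of 14 pre-osteoblast markers, 12 were higher there than in the other mesenchymal-like cells of both libraries, and Dmp1 and Ifitm5 were not. Ibsp, which encodes bone sialoprotein, had 139 CPM in cKO and 335 CPM in WT cells of the state. Sp7, the osteoblast transcription factor osterix, had 79.8 CPM in cKO and 78.2 CPM in WT. In cKO these 2 genes did not set the state apart from every single state. There Sp7 had 93.3 CPM in state 4 (82.2 to 105), and Ibsp had 128 CPM in the 70 cells of state 3 (109 to 149). In WT both genes were highest in the pre-osteoblast-like state among the 5 states with at least 50 cells in each library. Bglap, the osteocalcin gene of mature osteoblasts, had 13.8 CPM in cKO and 13.5 CPM in WT. The macrophage markers summed to 152 CPM in cKO and 227 CPM in WT cells of the state, and the neutrophil markers to 136 CPM in each.

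Over all mesenchymal-like cells Cyp26b1 had 20.6 CPM in cKO (19.6 to 21.6) and 31.7 CPM in WT (30.6 to 32.8), a ratio of 0.650 (0.613 to 0.689). In thinned cells, 16.0% of cKO (13.9 to 18.3) and 24.2% of WT cells (22.2 to 26.3) had a Cyp26b1 UMI, while without thinning the shares were 25.1% in cKO and 24.6% in WT. Macrophage-like cells, thinned alike, gave 2.09% in cKO (4 of 191 cells; 0.573 to 5.28) and 1.00% in WT (3 of 300 cells; 0.207 to 2.89). Thinned to 10000 UMIs, which keeps more cells, the order was reversed. The shares were then 1.12% of 979 cKO cells (0.562 to 2.00) and 2.85% of 1334 WT cells (2.02 to 3.89). Cells with at least 3 Cyp26b1 UMIs made up 5.11% of cKO and 7.67% of WT cells and held 71.0% of the Cyp26b1 UMIs in cKO and 69.7% in WT. The ratio in the Cxcl14-led state was 0.871 with an upper bound of 0.999, and in the cycling-like state it was 0.530 (0.453 to 0.620). When the WT state shares were applied to both libraries, the Aldh1a2 ratio was 0.618 and the Cyp26b1 ratio 0.566, a setting chosen after the values were seen.

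In the pre-osteoblast-like state, 3 of the 6 genes tested were at least 1.5-fold lower in cKO (Aldh1a2, Cyp26b1 and Rbp4), where 1.55% of 8629 genes were. None of the 6 was at least 1.5-fold higher, where 1.22% of all genes were. Aldh1a2 and Cyp26b1 chose the set, so nothing is read from the count in this state. The size of the Cyp26b1 gap within this state depended on which cells were counted as pre-osteoblast-like. With the retinoid genes left out of the clustering, the state held 180 cKO and 172 WT cells, and Cyp26b1 had 81.8 CPM in cKO and 119 CPM in WT, a ratio of 0.687 (0.628 to 0.751). At a clustering resolution of 1.0, with 133 cKO and 268 WT cells, the ratio was 0.966. The Aldh1a2 ratio in the state lay between 0.208 and 0.443 and the Rbp4 ratio between 0.469 and 0.591 over the same 8 alternatives, in each of them lower in cKO.

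A grouping of the thinned cells by their Ibsp UMIs, made after the values were seen, does not use the stromal states. The cells were still those of the mesenchymal-like clusters, and Ibsp is among the markers used to name the pre-osteoblast-like state. Cyp26b1 climbed with Ibsp in both libraries. Its level was 15, 35.5, 68.9 and 123 CPM in cKO cells with 0, 1 to 4, 5 to 19 and 20 or more Ibsp UMIs. In WT cells it was 20.5, 41.5, 122 and 161 CPM in the same order. The cKO over WT ratio of Cyp26b1 was 0.733 (0.630 to 0.852) at 0 Ibsp UMIs and 0.563 (0.428 to 0.733) at 5 to 19. At 1 to 4 (0.854) and at 20 or more (0.764) the intervals included 1. The group of 5 to 19 held 53 cKO and 103 WT cells, and the last group held 24 cKO and 51 WT cells. The intervals treat UMIs as independent and leave out differences between cells. Among all thinned mesenchymal-like cells, those with at least 3 Cyp26b1 UMIs held 71.0% of these UMIs in cKO and 69.7% in WT. Aldh1a2 showed no such climb through the first 3 groups. It had 42.3, 45.9, 32.1 and 85.4 CPM in cKO cells and 72.2, 84.2, 79.1 and 115 CPM in WT cells. Its ratio was 0.585, 0.546, 0.405 and 0.745 in the 4 groups, and the interval included 1 in the last (0.509 to 1.07). Of the cells with 0 Ibsp UMIs, 19.5% of 886 cKO and 12.4% of 1250 WT cells lay in the pre-osteoblast-like state. In the group with 20 or more, 50% of cKO and 72.5% of WT cells did.

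**Figure D4:**
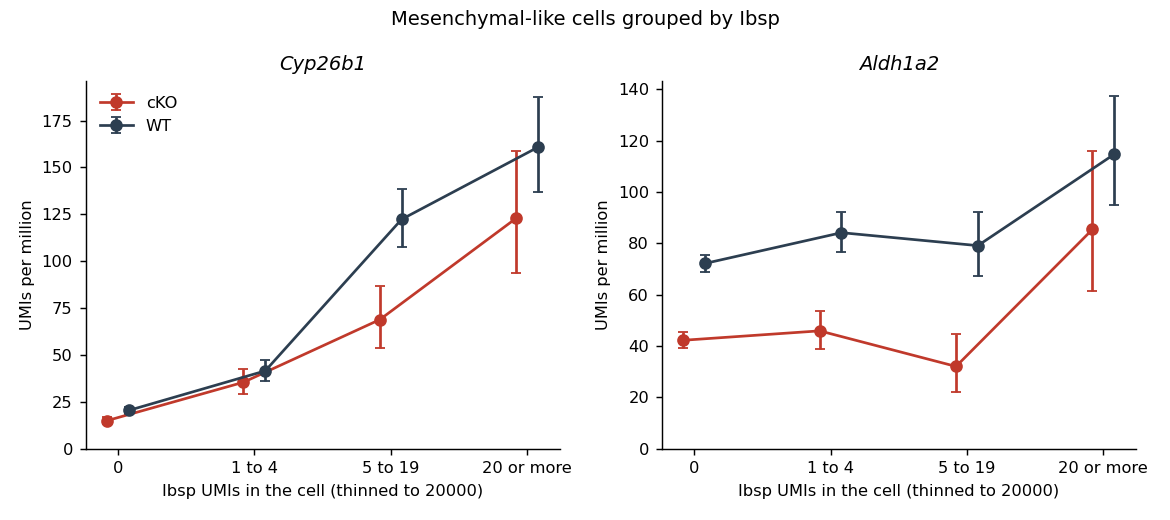
CPM of Cyp26b1 (left) and Aldh1a2 (right) in mesenchymal-like cells thinned to 20000 UMIs and grouped by their Ibsp UMIs, with exact Poisson 95% intervals; cKO in red, WT in dark. Cyp26b1 climbs across the 4 groups in both libraries, to 123 CPM in cKO and 161 CPM in WT, while Aldh1a2 in cKO stays between 32.1 and 45.9 CPM in the first 3 groups.

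Synthesis and breakdown transcripts were not kept to separate cells. Among thinned cKO cells, 32.4% of the 182 with a Cyp26b1 UMI (25.7 to 39.7) and 31.2% of the 953 without one also had an Aldh1a2 UMI. Among WT cells, 59.5% of the 407 with a Cyp26b1 UMI (54.5 to 64.3) and 46.9% of the 1275 without one (44.1 to 49.7) did. Within the pre-osteoblast-like state, cells with a Cyp26b1 UMI also had Aldh1a2 in 14 of 77 cases in cKO (18.2%) and in 82 of 154 cases in WT (53.2%). The interval of the cKO share (10.3 to 28.6) lies below that of the WT share (45.0 to 61.3). Among cells of the state without a Cyp26b1 UMI, 15.9% of 214 in cKO (11.3 to 21.5) had Aldh1a2. In WT, 39.0% of 164 such cells did (31.5 to 46.9). The gap in Aldh1a2 between the libraries was thus not particular to cells with Cyp26b1.

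The 3 retinoic acid receptors were less than 1.5-fold apart between the libraries. Rara (chr11:98927818-98974942, plus strand) had 25.2 CPM in cKO and 26.5 CPM in WT mesenchymal-like cells, a ratio of 0.948 (0.895 to 1.00). Rarg (chr15:102234938-102257517, minus strand) had 42.0 CPM in cKO and 39.6 CPM in WT, a ratio of 1.06 (1.01 to 1.11). Rarb (chr14:16430839-16819156, minus strand), whose window holds the response element printed above, had 4.30 CPM in cKO and 4.09 CPM in WT, a ratio of 1.05 (0.911 to 1.21). That window lies inside the annotated gene and not at its outer 5′ end. The counts are of the whole gene and do not separate transcripts by start. With each cell weighted equally, the ratio was 0.990 for Rara, 1.16 for Rarg and 1.41 for Rarb. Rarb overlaps Top2b on the opposite strand. The sources used here do not state the strand setting of the counting. Whether reads of such opposite-strand partners entered the counts of Rarb, Stra6 or Aldh1a2 was not tested. On the same strand, Rara overlaps the predicted gene Gm22061 and Stra6 overlaps Gm16131, and reads of these could be split under any counting. Rara was even across states, with 23.3 to 28.9 CPM in cKO and 22.9 to 28.8 CPM in WT. Rarg was somewhat higher in the pre-osteoblast-like state than in the rest, by 1.36 times in cKO (1.27 to 1.46) and 1.21 times in WT (1.12 to 1.31). Rarb went the other way, at 0.490 times the rest in cKO (0.362 to 0.652) and 0.583 times in WT (0.419 to 0.793). After thinning, 38.9% of cKO and 39.5% of WT cells had a Rara UMI, and 53.8% and 54.3% had a Rarg UMI.

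Outside the stroma, fewer of the 9 genes reached 10 CPM. In all macrophage-like cells pooled, 1 of the 9 genes reached 10 CPM, Rara, with 20.4 CPM in cKO and 20.6 CPM in WT (ratio 0.992, 0.879 to 1.12). It was not past 1.5-fold, where 1.07% of 8867 genes were lower and 0.665% higher. Rarg had 5.46 CPM in cKO and 5.17 CPM in WT macrophage-like cells. Aldh1a2 passed 10 CPM in single macrophage-like clusters, with 2.66 CPM in cKO and 16.6 CPM in WT cells of cluster 10 and 12.7 CPM in cKO (4 UMIs) and 24.8 CPM in WT (11 UMIs) in cluster 12. Prrx1 had 41.8 CPM in cKO and 65.9 CPM in WT in cluster 10, and 41.2 CPM in cKO and 42.8 CPM in WT in cluster 12. Endothelial-like cells had Rara at 22.9 CPM in cKO and 19.1 CPM in WT and Rarg at 30.5 CPM in cKO and 26.0 CPM in WT, and neither was past 1.5-fold, where 5.41% of 9321 genes were lower and 7.1% higher. Rarb, at 9.01 CPM in cKO and 4.07 CPM in WT endothelial-like cells, rested on 26 and 13 UMIs. Osteoclast-like cells had Rara at 31.5 CPM in cKO and 22.1 CPM in WT, with overlapping intervals.

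The highest Rara levels lay in 2 small lymphoid-type clusters. The T or NK cell-like cluster had 86.9 CPM in cKO (50.6 to 139; 37 cells) and 61.0 CPM in WT (31.5 to 106; 45 cells). The unnamed cluster 18, led by Hlf, Ccr9, Il17rb, Il1rl1 and Gata3, had 118 CPM in cKO (79.6 to 168; 35 cells) and 107 CPM in WT (68.4 to 159; 39 cells). These clusters do not differ beyond their intervals. Rarg in cluster 18 was 70.8 CPM in cKO and 116 CPM in WT, again with overlapping intervals, and Rarb gave 0 UMIs there in both libraries. The unnamed cluster 4, shallow cells led by H19, Hspb1 and Cnn1 with Prrx1 at 301 CPM in cKO and 388 CPM in WT, had Aldh1a2 at 30.7 CPM in cKO and 52.8 CPM in WT. Cyp26b1 gave 4 UMIs there in 386 cKO cells and 1 UMI in 164 WT cells. B cell-like cells had 1 Aldh1a2 UMI in cKO and 23.1 CPM in WT, and Prrx1 at 7.93 CPM in cKO and 151 CPM in WT.

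Of 41 further genes of retinoid transport, storage, oxidation, breakdown and nuclear signalling, 23 reached 10 CPM in mesenchymal-like cells and 0 of them were past 1.5-fold in either direction, beside the 1.15% of all genes lower and 0.581% higher, so the count does not set the list apart. Their median log2 ratio was -0.03, as was that of all genes tested (-0.03), with 14 of the 23 lower and 9 higher. Among members of at least 50 CPM the median was -0.15. Dhrs3, which reduces retinal back to retinol, had 108 CPM in cKO and 140 CPM in WT, a ratio of 0.776 (0.756 to 0.797). Rdh10, which makes retinal, had 14.4 CPM in cKO and 13.4 CPM in WT (1.07, 0.989 to 1.16). Aldh1a3, a second retinaldehyde dehydrogenase, had 15.3 CPM in cKO and 14.0 CPM in WT (1.10, 1.01 to 1.18), and Aldh1a1 was under 0.2 CPM in both libraries. Cyp26a1 gave 0.012 CPM in cKO and 0 UMIs in WT. Fabp5, which can carry retinoic acid to the receptor PPARD, had 569 CPM in cKO and 678 CPM in WT (0.840). The coactivators Ncoa1, Ncoa2 and Ncoa3 had ratios of 0.831, 0.821 and 0.790. The corepressor Ncor1 had a ratio of 0.855. The partner receptors Rxra and Rxrb had ratios of 1.03 and 0.947, with intervals that include 1, and Nr2f2, a related orphan receptor, had 1.23 (1.16 to 1.29).

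Of 23 genes known to answer to retinoic acid, 4 of which belong to the 9 described here, 12 reached 10 CPM in mesenchymal-like cells. Cyp26b1 and Tgm2 were at least 1.5-fold lower in cKO and 0 were at least 1.5-fold higher, beside the 1.15% and 0.581% of all genes given above. Cyp26b1 is also a gene that chose the set, so nothing is read from this count. Tgm2, a transglutaminase, had 8.30 CPM in cKO and 13.1 CPM in WT (0.635, 0.579 to 0.697). Pdk4, a kinase that restrains pyruvate oxidation, had 39.7 CPM in cKO and 27.3 CPM in WT (1.45, 1.38 to 1.53). The median log2 ratio of the 12 was -0.15, with 9 lower and 3 higher, and it was -0.02 with no filter on low members. Meis1 had a ratio of 1.14 and Meis2 of 0.915, and Hoxa5 had 0.895.

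**Figure D5:**
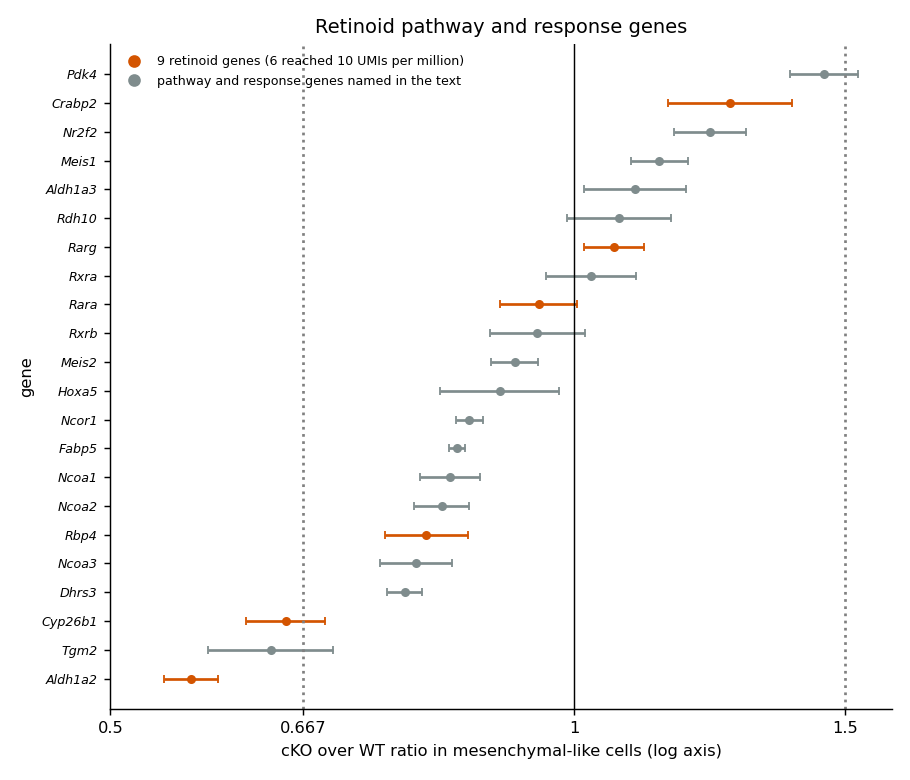
Ratio of cKO over WT in mesenchymal-like cells (log axis) for the 6 followed genes that reached 10 CPM (orange) and the pathway and response genes named in the text (grey), with exact conditional binomial 95% intervals. Dotted lines mark 1.5-fold. Aldh1a2 (0.564), Tgm2 (0.635) and Cyp26b1 (0.650) lie below the lower line, and Pdk4 (1.45) is highest among those drawn.

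The genes most like Aldh1a2 and Cyp26b1 across the stroma were listed over 10 points, the 5 larger states of each library, among 4586 genes with at least 50 CPM in at least 1 point. The points share library, depth and cells, so the values describe these points. For Aldh1a2, Pearson's r of log2(CPM + 1) was 0.97 for Csgalnact1, a chondroitin sulfate enzyme, 0.95 for the laminin gene Lama4, 0.94 for the collagen gene Col3a1, 0.93 for Acadm and 0.92 for Ubtd2. For Cyp26b1 it was 0.94 for the teneurin gene Tenm4, 0.94 for Ero1l, 0.94 for Kcnma1, 0.93 for Nhs and 0.93 for Lrp4.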

How the data were processed

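Single-cell RNA was measured in 1 cKO and 1 WT library of adherent marrow cells. The deposited matrices hold unnormalized UMI counts. Per the file headers, they come from Cell Ranger 7.1.0. Alignment was to GRCm38 (mm10) and Seurat was also used, per the submitters' processing notes. Nothing in the sources states the treatment of intronic reads. No annotation of cells by the authors was used here.

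The 9 genes, the gene lists and the markers were chosen with earlier results of these data known. Filters required 500 genes and 1000 UMIs per barcode and allowed 15% mitochondrial UMIs, which kept 5506 of 6140 in cKO and 8171 of 9125 in WT. Scrublet's automatic threshold marked 2 cells in each library and so had not worked. The cells with the highest scores were removed instead at 0.8% per 1000 cells, 243 in cKO and 534 in WT. With scanpy 1.11.5, each cell was normalized to a total of 10000 and logged. Leiden clustering (resolution 0.5, 15 neighbours) used 30 principal components of the 2000 most variable genes. Mesenchymal-like cells were clustered again in the same way. A cluster was named when at least 3 markers of a class were 2-fold (states, 1.5-fold) above the mean of the clusters. It stayed unnamed when its leading genes pointed to another class or when its cells were shallow without a marker among the 10 leading genes.

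UMIs were summed per library and cell group and divided by the group's total (CPM). Levels have exact Poisson, ratios exact conditional binomial and shares exact Clopper-Pearson 95% intervals. A gene entered a count when either library reached 10 CPM, and log2 ratios used a prior of 1 CPM. Some genes of the lists are counted but not reported here by name. The ratio step was tested on simulated data. All 9 genes were described, together with genes of the lists that reached 10 CPM and the 5 genes most like Aldh1a2 and like Cyp26b1. Gene coordinates are from GENCODE M21 (GRCm38, 1-based). Alternatives covered the cell filter, doublets, clustering, the definition of the class, depth, weighting, scaling, the prior and thinning. Equal state shares, the Ibsp grouping and the ratios within re-drawn pre-osteoblast-like states were added after seeing the data.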

Additional observations from a re-analysis of the deposited data

Results flagged for a closer look

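Rbp4 differed in opposite directions between endothelial-like cells and stromal states, and that difference between classes was not tested. In endothelial-like cells it had 8.31 CPM in cKO and 1.88 CPM in WT, a cKO over WT ratio of 4.43 (1.76 to 13.2). In the Cxcl14-led state 0 the ratio was 0.80, in the pre-osteoblast-like state 1 it was 0.502 and in the Ltf-led state 4 it was 0.606. The endothelial-like values rest on 24 UMIs in 4 of 86 cKO cells, 11 of them in 1 cell, and on 6 UMIs in 6 of 123 WT cells. Prrx1, a mesenchymal gene, had 87.6 CPM in cKO and 24.1 CPM in WT endothelial-like cells. Its part in the Rbp4 value was not tested.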

How the results depend on the processing

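The counts of genes past 1.5-fold in mesenchymal-like cells, 2 lower and 0 higher in cKO, were the same in all 9 alternatives. The Aldh1a2 ratio lay between 0.553 and 0.577 and the Cyp26b1 ratio between 0.633 and 0.662 in those 9. With WT state shares in both libraries they were 0.618 and 0.566, a setting added after seeing the data. The median log2 ratio of the pathway list (-0.03) lay between -0.15 (members of at least 50 CPM) and -1.88e-05 (scaling by the median ratio), and that of the response list (-0.15) between -0.18 (each cell weighted equally) and -0.02 (no filter on low members). The excess of Cyp26b1 in pre-osteoblast-like cells kept its direction in all 8 alternatives that gave such a state, and its size changed with the cells counted. It was 10.4 times in cKO and 6.14 times in WT without doublet removal, 8.15 and 4.71 times at resolution 1.0, 7.16 and 5.19 times with the retinoid genes out of the clustering, and 12.3 and 7.0 times among cells with a Prrx1 UMI. In WT it was 4.53 times among cells of at least 20000 UMIs and 3.12 times with each cell weighted equally. The cause was not tested. Without a cell filter no pre-osteoblast-like state was found. With each cell weighted equally the Crabp2 ratio was 0.977, against 1.26. The cKO over WT ratio of Cyp26b1 within pre-osteoblast-like cells lay between 0.525 and 0.966. No paired analysis was possible because each group has 1 library. Depth limits Stra6, Crabp1 and Rarb, and the shares of cells with a UMI, which change with the depth to which cells are thinned.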

Other observations

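In the unnamed state 2, Rarb had 11 UMIs in 11 cKO cells, all 11 of them in 1 cell, and 8 UMIs in 113 WT cells, each in a different cell.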
